A study of Mus with 9 samples.

Results

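The potassium channel genes of the mouse hippocampus are described here from group averages of SAMR1 mice, SAMP8 mice and SAMP8 mice given trigonelline (TG). The members are all gene symbols that begin with Kcn followed by a letter, the naming root of potassium channel subunits. This rule found 95 genes, each with 1 probe set (the set of short probes that reports a transcript), of 22662 named in the deposited tables, which list 22206 probe sets. It uses no measured value. SAMP8 is a senescence-accelerated mouse strain with early memory loss, and SAMR1 is its senescence-resistant counterpart. TG is a plant alkaloid found in coffee and fenugreek. Hippocampal RNA of 3 male mice per group, 9 in all, was hybridised to Clariom S Mouse arrays. Vehicle was given to the SAMR1 group and to the first SAMP8 group, and TG was given by mouth at 5 mg/kg to the second SAMP8 group. Animals were 16 weeks old and individually housed, dosing lasted 30 days, and by the sample records it went on through 8 days of Morris water maze testing, so every group had been trained in the maze. SAMP8 and SAMR1 are separate inbred strains, so the strain comparison takes in every allele by which they differ, and no SAMR1 group given TG is part of the series. The vehicle is saline in the records and water in the methods. The series text speaks of duplicate RNA whereas the records list 3 arrays per group, and a note on each record about a macrophage line under another treatment was set aside.

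Potassium channels let potassium leave the cell and so bring the membrane back towards rest, set the firing threshold and limit repetitive firing. Voltage-gated (Kv) channels are tetramers of pore-forming subunits that open on depolarisation, inward rectifiers (Kir) and K2P channels hold the resting potential, and calcium-activated channels (BK, SK) shape the afterhyperpolarisation. Cytosolic and membrane auxiliary subunits (Kv beta, KChIP, MinK family, BK beta) set their gating and their number at the surface. In the hippocampus these channels shape dendritic excitability, long-term potentiation and spatial learning.

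The values are the authors' averages per group on a log2 signal scale, in which a difference of 1 is a doubling. No value per array and none of the authors' p-values was used, so no average is given with an error and no difference was set against the spread between mice. Every fold below is therefore a description of 2 averages, with no test, and the number of arrays limits its precision. Members at least 1.5-fold apart (0.585 on the log2 scale) are counted beside the share of all probe sets that were as far apart. A probe set is called low in signal where its mean over the 3 groups lay under 4.40, the 25th percentile of all probe sets, which was so for 20 of the 95 members. Both main comparisons contain the same SAMP8 averages with opposite sign, and the comparison of TG-treated SAMP8 with SAMR1 shares a group with each of them. In whole tissue, fewer cells of a type and less RNA per cell cannot be told apart. The medians of all averages were 6.09 in SAMR1, 6.04 in SAMP8 and 6.07 with TG. The 8 listed markers of hippocampal neurons had medians of 9.27, 9.20 and 9.22 in SAMR1, SAMP8 and TG-treated SAMP8. They ranged from Neurod6, a transcription factor of hippocampal pyramidal neurons, at 14.86, 14.85 and 14.88, down to C1ql2 at 6.61, 6.57 and 6.68. Prox1, the transcription factor of dentate granule cells, averaged 11.26, 11.85 and 11.00. Listed thalamic probe sets had medians of 7.82, 8.32 and 8.25, so these values do not show how cleanly the hippocampus was dissected.

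In SAMP8 against SAMR1 the potassium channel genes lay more often on the higher side. The widest difference was 2.07-fold, in Kcnj11. At least 1.5-fold higher in SAMP8 were 10 members (10.5%), beside 5.00% of all probe sets, among them Kcna1, Kcna6, Kcnb2, Kcnd2, Kcnj11, Kcnk1, Kcnk2, Kcnn2 and Kcnt1. At least 1.5-fold lower were 3 members (3.16%), beside 6.08% of all probe sets: Kcne2, Kcnk10 and Kcnn4. All 10 of the higher genes encode pore-forming subunits, as do Kcnk10 and Kcnn4. At a limit of 1.2-fold, 31 members were higher, beside 20.4% of all probe sets, and 12 were lower, beside 20.4%. At a limit of 2-fold only Kcnj11 was higher, beside 0.838% of all probe sets, and no member was lower, beside 1.47%. Among the 75 members that are not low in signal, 10 were at least 1.5-fold higher (13.3%, beside 6.25% of such probe sets) and 1, Kcnk10, was lower (beside 6.34%). Counted by sign alone, 60 of 95 members (63.2%) were higher in SAMP8, and so were 49.5% of all probe sets. The median difference was 0.08 over the members and 0.00 over all probe sets. Members with low signal lay on the other side, with 15 of 20 (75.0%) lower in SAMP8 as were 62.3% of all low probe sets, while of the other 75 members 55 (73.3%) were higher, beside 54.0%.

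Between TG-treated and untreated SAMP8 the members divided evenly between both directions. At least 1.5-fold higher with TG were 6 members (6.32%), beside 4.48% of all probe sets: Kcnab3, Kcne3, Kcnh3, Kcnj9, Kcnn4 and Kcnq1. At least 1.5-fold lower with TG were 6 members (6.32%), beside 3.74%, among them Kcnb2, Kcnip1, Kcnip3, Kcnq1ot1 and Kcns2. At a limit of 1.2-fold, 18 members were higher, beside 19.6% of all probe sets, and 22 were lower, beside 18.5%. At 2-fold, Kcnab3 and Kcnn4 were higher (beside 0.473%) and Kcns2 was lower (beside 0.342%). Kcne3, Kcnn4 and Kcnq1 are low in signal, and without such probe sets the members at least 1.5-fold higher were 3 (Kcnab3, Kcnh3 and Kcnj9, beside 5.01%) while the 6 lower members were all still counted (beside 4.63%). The members' median was -0.01, beside 0.01 over all probe sets. Split by signal, 46 of the 75 members with higher signal (61.3%) were lower with TG, beside 50.7% of such probe sets, and 18 of the 20 members with low signal (90.0%) were higher with TG, beside 57.0%. Kcnb2 and Kcnn4 were at least 1.5-fold apart in both comparisons, and both rest on the same SAMP8 averages.

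Set directly against SAMR1, TG-treated SAMP8 had 7 members at least 1.5-fold higher (7.37%, beside 5.62% of all probe sets), namely Kcnab1, Kcnab3, Kcnh3, Kcnj11, Kcnj4, Kcnj9 and Kcnk1. At least 1.5-fold lower were 3 members (3.16%, beside 4.83%), namely Kcnj14, Kcnmb1 and Kcnq3. At 1.2-fold the counts were 27 higher (beside 20.0%) and 13 lower (beside 20.5%). At 2-fold, Kcnab3, Kcnh3, Kcnj11 and Kcnk1 were higher (beside 1.13%) and no member was lower (beside 0.712%). None of these 10 genes is low in signal, so without the low probe sets the same numbers stand beside 6.97% and 5.35%. The median difference of the members was 0.04, beside -0.01 over all probe sets.

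**Figure D1:**
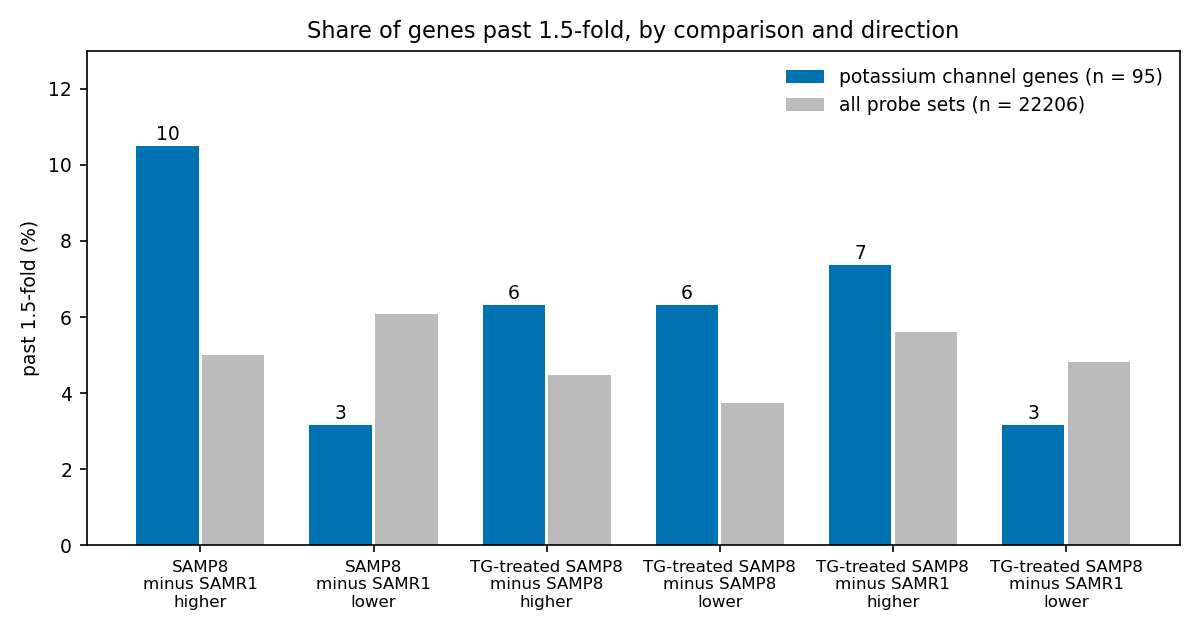
Percent of the 95 potassium channel genes (blue) and of all 22206 probe sets (grey) that differed by at least 1.5-fold, by comparison and direction; the number of genes stands above each blue bar. The blue bar is above the grey one in 4 of the 6 pairs, and the members' widest margin is on the higher side of SAMP8 minus SAMR1, at 10.5% beside 5.00%.

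The members comprise 77 pore-forming genes and 18 others. In SAMP8 minus SAMR1 the pore-forming genes had a median difference of 0.12, with 52 higher and 25 lower. Of all probe sets 49.5% were higher and 49.0% lower. The remaining 18, which are auxiliary subunits, the regulator Kcnrg and the noncoding Kcnq1ot1, had a median of -0.01. None of them was at least 1.5-fold higher (beside 5.00% of all probe sets) and 1 was lower (beside 6.08%). With TG the medians were -0.03 and 0.04. Of the other 18, 2 were at least 1.5-fold higher with TG (beside 4.48% of all probe sets) and 3 were lower (beside 3.74%). Among these 5, Kcne3 is low in signal and Kcnq1ot1 is noncoding. By subfamily, the highest median of SAMP8 minus SAMR1 was that of the Kv beta genes (0.45 over 3) and the lowest that of the MinK family (-0.34 over 5). With TG the MinK family had the highest median of any subfamily (0.27), and the lowest among subfamilies of channel subunits was that of the KChIP genes (-0.29 over 4), whose members lay on both sides. This ranking depends on genes of low signal. Without them the MinK family had no gene left, and the Kv7 median with TG was -0.41, under that of the KChIP genes.

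**Figure D2:**
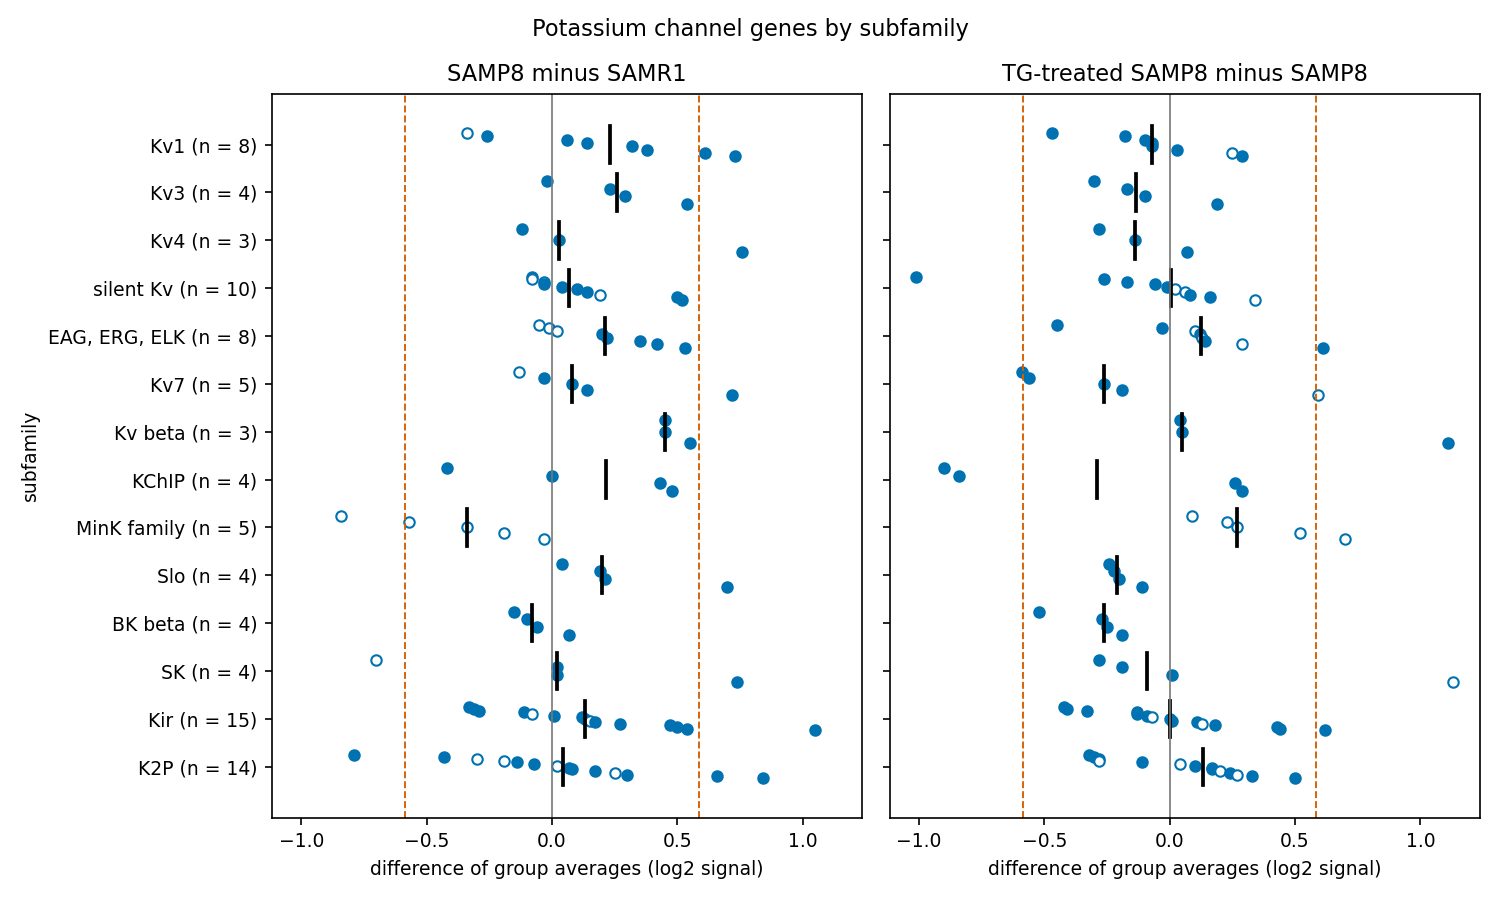
Difference of group averages (log2 signal) of each potassium channel gene by subfamily, for subfamilies of at least 3 genes, in SAMP8 minus SAMR1 and TG-treated SAMP8 minus SAMP8; filled points have a signal at or above the 25th percentile, open points lie below it, black bars are subfamily medians and dashed lines mark 1.5-fold. All 3 Kv beta genes and all 4 Slo genes sit right of 0 in the left panel, beside 49.5% of all probe sets. All 4 Slo and all 4 BK beta genes sit left of 0 in the right panel, beside 48.3%.

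The channels of the Kv1 genes sit along axons and at nerve terminals. Of these 8 genes, 6 were higher in SAMP8 than in SAMR1 (median 0.23), beside 49.5% of all probe sets. At least 1.5-fold higher were 2 of them, beside 5.00% of all probe sets. Kcna1, the subunit mutated in episodic ataxia, averaged 10.22 in SAMR1, 10.95 in SAMP8 and 10.48 with TG. It was thus 1.66-fold higher in SAMP8 than in SAMR1, and with TG it was 1.39-fold lower than in SAMP8. Kcna6 averaged 8.00, 8.61 and 8.54 in the same order, so that both SAMP8 groups lay above SAMR1 and within 0.07 of each other. Kcna2 had 9.63, 10.01 and 9.94, and Kcna4, which carries an inactivating current, had 9.87, 10.19 and 10.09. These 4 genes were higher in SAMP8 than in SAMR1 by 0.32 to 0.73 and lower with TG than without by 0.07 to 0.47 on the log2 scale. Kcna7, known mainly from heart and skeletal muscle, went the other way with 5.05, 4.79 and 5.08. Kcna3 and Kcna5 differed by at most 0.18 in either comparison, and Kcna10 was low in signal.

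Kcnb2, a Kv2 delayed rectifier of neurons (chr1:15286925-15723751 in GRCm38), averaged 8.41 in SAMR1, 9.09 in SAMP8 and 8.18 with TG. Its SAMP8 average was the highest of the 3, 1.60-fold above SAMR1, and its TG average was the lowest, 1.88-fold under untreated SAMP8. The Kv3 genes, which give fast-spiking neurons their brief action potentials, stayed within 1.5-fold in both comparisons, with Kcnc4 the farthest apart at 9.18, 9.72 and 9.62. Kcnc1 averaged 12.29, 12.58 and 12.41. Of the Kv4 genes, Kcnd2, which carries the A-type current of pyramidal cell dendrites, averaged 12.19, 12.95 and 12.67. Kcnd2 was 1.69-fold higher in SAMP8 than in SAMR1 and 1.21-fold lower with TG than in SAMP8, while Kcnd1 and Kcnd3 differed by at most 0.14 in either comparison.

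The 10 silent Kv genes (Kcnf1, Kcng, Kcns and Kcnv), whose proteins form no channel alone but modify Kv2 channels, had medians near 0 (0.07 in SAMP8 minus SAMR1 and 0.01 with TG). The exception was Kcns2 (chr15:34837355-34843407), which averaged 6.83 in SAMR1, 7.35 in SAMP8 and 6.34 with TG. The 2.01-fold lower average with TG was the widest on the lower side of all 95 members. Kcns1 averaged 4.77, 5.27 and 5.01, and of the other 8 silent genes none differed by more than 0.34 in either comparison. Kcns2 and Kcnb2, a silent subunit and a pore of its partner subfamily, had the same order of groups, with SAMP8 highest and TG-treated SAMP8 lowest. This order was not particular to them. It was also that of Kcnip1, Kcnip3, Kcnj3 and Kcnq5, among others, while the silent Kcns1 was lowest in SAMR1.

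In the EAG, ERG and ELK subfamily, 6 of 8 genes were higher in SAMP8 than in SAMR1, beside 49.5% of all probe sets. With TG 6 of 8 were higher than without, beside 50.0%, and these include the low-signal genes Kcnh4, Kcnh6 and Kcnh8. Kcnh3 (chr15:99224517-99242818), an ELK channel of forebrain neurons, averaged 7.21 in SAMR1, 7.74 in SAMP8 and 8.35 with TG. Each group lay above the one before, by 1.44-fold and then 1.53-fold, and TG-treated SAMP8 was 2.20-fold above SAMR1. Kcnh7, an ERG channel, had 9.22, 9.64 and 9.19, so only untreated SAMP8 stood apart. Kcnh1 (9.97, 10.32 and 10.29) and Kcnh5 (8.39, 8.59 and 8.71), the EAG channels, were higher in both SAMP8 groups than in SAMR1. Kcnh2, the ERG channel also known from cardiac repolarisation, averaged 6.95, 7.17 and 7.31, and Kcnh4, Kcnh6 and Kcnh8 were low in signal.

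The Kv7 genes encode the M-current, a slow non-inactivating current that is closed by muscarinic receptors and restrains repetitive firing. Kcnq3 averaged 10.75 in SAMR1, 10.72 in SAMP8 and 10.16 with TG. Both untreated groups lay within 0.03 of each other, and the TG group was 1.47-fold under SAMP8 and 1.51-fold under SAMR1. Kcnq5 averaged 12.00, 12.08 and 11.82, with TG likewise the lowest. Kcnq1, the cardiac and epithelial member, was low in signal with 3.76, 3.63 and 4.22, highest with TG.

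The cytosolic proteins of the 3 Kv beta genes have the fold of an aldo-keto reductase and are auxiliary subunits of Kv1 channels. These 3 genes were higher in SAMP8 than in SAMR1 by 0.45 to 0.55. Kcnab1 averaged 12.23, 12.78 and 12.83 in SAMR1, SAMP8 and TG-treated SAMP8, and Kcnab2 averaged 16.20, 16.65 and 16.69. With TG both lay within 0.05 of untreated SAMP8. Kcnab3 (chr11:69326258-69333041) averaged 6.25, 6.70 and 7.81, so the TG group lay 2.16-fold above untreated SAMP8 and 2.95-fold above SAMR1. That last difference was the widest between any 2 groups for any of the 95 members.

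The KChIP genes encode calcium-binding partners of the Kv4 channels, and they divided into 2 pairs. Kcnip1 averaged 9.01 in SAMR1, 9.44 in SAMP8 and 8.54 with TG. Kcnip3, also known as calsenilin or DREAM, a presenilin-binding protein and transcriptional repressor, averaged 10.95, 11.43 and 10.59. In both genes SAMP8 had the highest average and the TG group the lowest, 1.87-fold and 1.79-fold under untreated SAMP8. Kcnip2 averaged 12.43, 12.01 and 12.30, with SAMP8 the lowest group. Kcnip4 averaged 13.76 in SAMR1 and in SAMP8 and 14.02 with TG. Kcnd2, the Kv4 pore named above, was 1.21-fold lower with TG than without.

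All 5 MinK family genes, small membrane subunits that modify Kv7 and other Kv channels, were low in signal. Each was lower in SAMP8 than in SAMR1 and higher with TG than in untreated SAMP8. Kcne2, which is prominent in the choroid plexus epithelium, averaged 4.59 in SAMR1, 3.75 in SAMP8 and 4.27 with TG, and Kcne3 averaged 3.81, 3.62 and 4.32. Kcne2 was 1.79-fold lower in SAMP8 and Kcne3 1.62-fold higher with TG, and Kcne1, Kcne1l (now Kcne5) and Kcne4 differed by less than 1.5-fold. Low probe sets as a whole leaned the same way, since their medians over the tables were -0.08 in SAMP8 minus SAMR1 and 0.04 with TG.

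The Slo genes (Kcnma1, Kcnt1, Kcnt2 and Kcnu1) were higher in SAMP8 than in SAMR1 in 4 of 4 cases, by 0.04 to 0.70. Of all probe sets 49.5% were higher. With TG 4 of 4 were lower than in untreated SAMP8, beside 48.3% of all probe sets, with differences from -0.24 to -0.11. Kcnma1, the pore of the BK channel, averaged 14.12 in SAMR1, 14.33 in SAMP8 and 14.13 with TG. Kcnt1, a sodium-activated channel whose human gene is mutated in childhood epilepsies, averaged 9.13, 9.83 and 9.61, 1.62-fold higher in SAMP8 than in SAMR1. Kcnt2 and Kcnu1 differed by at most 0.24 in either comparison. The BK beta genes, which tune the calcium sensitivity of the BK pore, were all 4 lower with TG than in either other group. Of all probe sets, 48.3% were lower with TG than in untreated SAMP8 and 50.4% were lower than in SAMR1. Kcnmb4, the neuronal form, averaged 7.03, 6.93 and 6.68, and Kcnmb1, the smooth muscle form, averaged 6.78, 6.63 and 6.11. Only Kcnmb1 was at least 1.5-fold apart, at 1.59-fold lower in TG-treated SAMP8 than in SAMR1.

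Of the SK genes, Kcnn2 stood apart in the strain comparison. Its protein, SK2, curbs synaptic potentials in dendritic spines of CA1 neurons. Kcnn2 averaged 12.03 in SAMR1, 12.77 in SAMP8 and 12.49 with TG, 1.67-fold higher in SAMP8 than in SAMR1. Kcnn1 averaged 7.71, 7.73 and 7.74, and Kcnn3 averaged 7.09, 7.11 and 6.92. Both differed by at most 0.19. Kcnn4, the intermediate-conductance channel of blood and immune cells, had 4.36, 3.66 and 4.79, with SAMP8 lowest and the TG group 2.19-fold above it, and it is low in signal.

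Among the 15 Kir genes, Kcnj11 (chr7:46097123-46100952) was the farthest from SAMR1. It encodes the pore of the ATP-sensitive channel, which ties excitability to energy state. Kcnj11 averaged 5.70 in SAMR1, 6.75 in SAMP8 and 7.18 with TG, so that both SAMP8 groups lay above SAMR1, by 2.07-fold and 2.79-fold. Abcc8, which encodes the sulfonylurea receptor that assembles with this pore, averaged 7.47, 7.98 and 7.98 and was likewise higher in both SAMP8 groups. The vascular form of the channel had other values. Kcnj8, known from pericytes and smooth muscle, averaged 5.34, 5.05 and 5.16, and its partner Abcc9 averaged 4.88, 4.65 and 4.31, so that both were highest in SAMR1.

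The G-protein-gated Kir3 genes, whose channels are opened by GABA-B and other inhibitory receptors, differed in which group was highest. Kcnj3 averaged 12.54 in SAMR1, 12.81 in SAMP8 and 12.40 with TG, and Kcnj6 averaged 10.32, 10.82 and 10.40. SAMP8 was the highest group for both, and the TG group lay 1.33-fold and 1.34-fold under it. Kcnj9 averaged 7.69, 7.70 and 8.32, and Kcnj5 averaged 5.37, 5.26 and 5.70. For these the TG group was the highest, 1.54-fold and 1.36-fold above untreated SAMP8. The receptor genes Gabbr1 (15.80, 16.14 and 15.80) and Gabbr2 (16.61, 16.80 and 16.55) were higher in SAMP8 than in the other groups by at most 0.34.

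Kcnj10, the astrocyte channel that clears potassium from around neurons, averaged 11.98 in SAMR1, 12.11 in SAMP8 and 12.02 with TG, and Kcnj16, which can assemble with it, averaged 4.28, 4.43 and 4.36 at a low signal. For both, all 3 averages lay within 0.15. Kcnj4, a neuronal inward rectifier, averaged 6.90, 7.37 and 7.55, and Kcnj14 averaged 6.47, 6.14 and 5.81. These differed from SAMR1 in the TG group by 1.57-fold higher and 1.58-fold lower, with untreated SAMP8 between the other groups in each. Kcnj13, prominent in choroid plexus, averaged 6.07, 6.61 and 6.62, and Kcnj1, known from the kidney, averaged 4.73, 4.42 and 4.42, so for both the 2 SAMP8 groups lay within 0.01 of each other. Kcnj2, Kcnj12 and Kcnj15 differed by at most 0.17 in either comparison.

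The K2P genes encode leak channels that hold the resting potential. Kcnk1 (chr8:125993655-126030685), a leak channel of astrocytes and neurons, averaged 9.55 in SAMR1, 10.39 in SAMP8 and 10.63 with TG. Both SAMP8 groups lay above SAMR1, by 1.79-fold and 2.11-fold. Kcnk2 and Kcnk10 encode the related stretch- and lipid-gated channels TREK-1 and TREK-2 and had opposite orders of groups. Kcnk2 averaged 7.70, 8.36 and 8.04, highest in SAMP8. Kcnk10 averaged 8.55, 7.76 and 8.26, lowest in SAMP8 at 1.73-fold under SAMR1, with the TG group 1.41-fold above untreated SAMP8. The acid-sensitive channels Kcnk3 (4.85, 4.92 and 5.09) and Kcnk9 (9.15, 9.32 and 9.04) differed by at most 0.28 in either comparison. Kcnk7, not known to carry a current alone, averaged 5.18, 4.75 and 5.08. The other 8 K2P genes differed by at most 0.30 in either comparison.

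**Figure D3:**
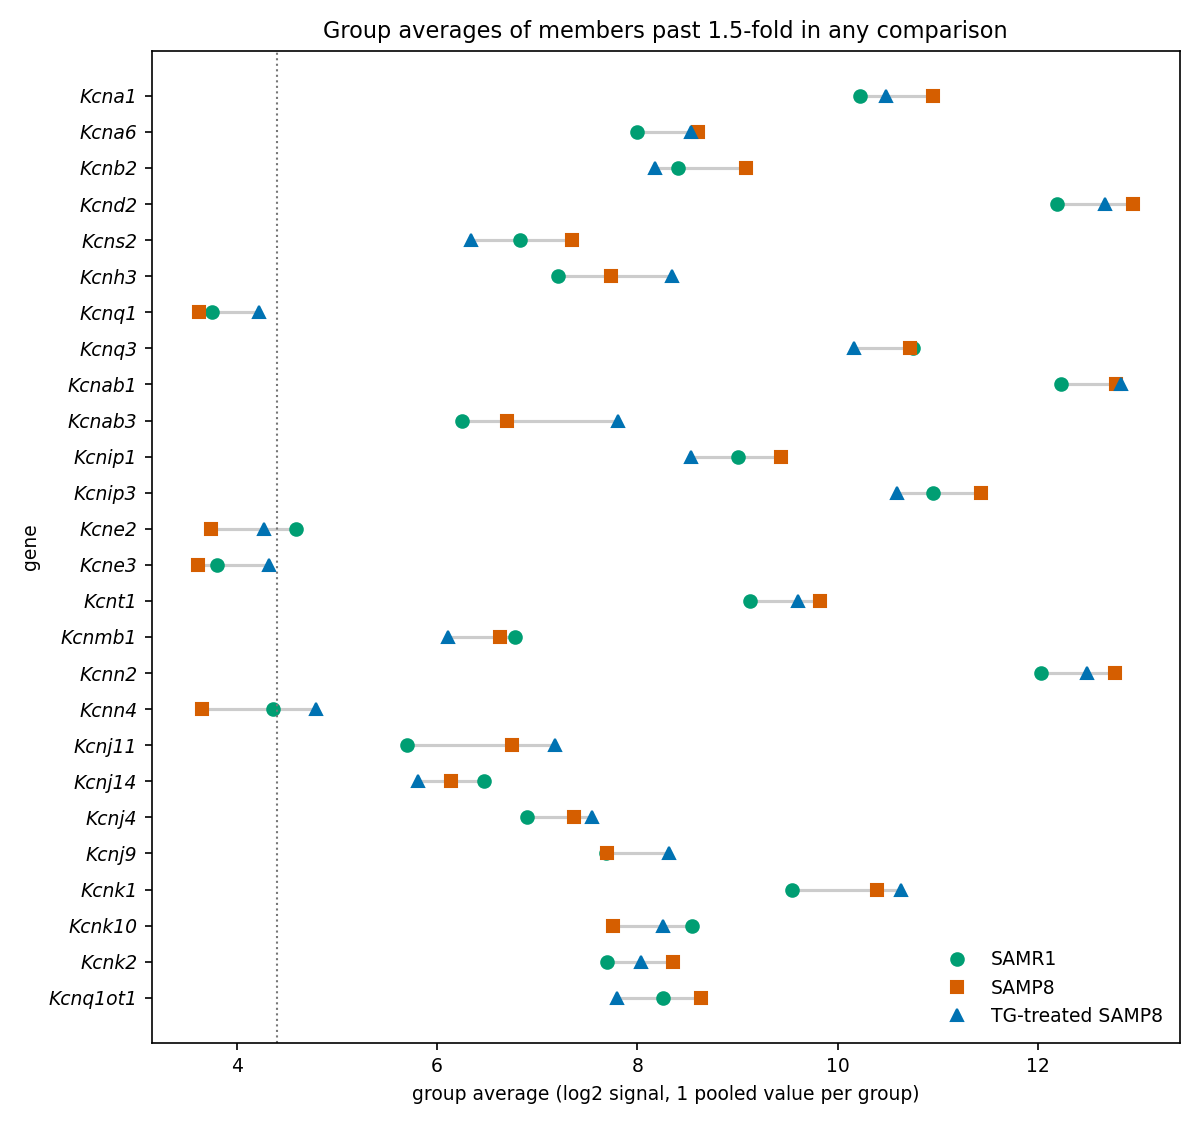
Group averages (log2 signal) of 26 genes at least 1.5-fold apart in any of the 3 comparisons, with 1 pooled value per group and no error; circles are SAMR1, squares SAMP8 and triangles TG-treated SAMP8, and the dotted line marks the low signal limit of 4.40. For Kcnj11, Kcnk1, Kcnh3 and Kcnab3 the averages are ordered SAMR1, SAMP8, TG-treated SAMP8 from left to right, while for Kcnb2, Kcns2, Kcnip1 and Kcnip3 the triangle is leftmost and the square rightmost.

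Several potassium channel genes are neighbours in the genome. Positions are those of RefSeq genes on GRCm38, and 13 pairs of members lie within 200 kb of each other. In the Kv1 cluster on chromosome 6, Kcna1 and Kcna6 lie 62.5 kb apart and were higher in SAMP8 than in SAMR1 by 0.73 and 0.61, whereas Kcna5, 101 kb from Kcna1, was higher by 0.06. In the cluster on chromosome 3, the differences of Kcna3, Kcna2 and Kcna10 were 0.14, 0.38 and -0.34. Kcnj9 and Kcnj10 lie 11.9 kb apart on chromosome 1, and their differences with TG were 0.62 and -0.09. Neighbours thus did not always go together.

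At 2 loci 1 member lies inside another. Kcnmb1 (chr11:33962955-33973641) lies within the span of Kcnip1 (chr11:33629339-33993348), and the differences of TG-treated from untreated SAMP8 were -0.52 for Kcnmb1 and -0.90 for Kcnip1. Kcnq1ot1 (chr7:143213111-143296547), the long noncoding RNA that silences genes of the imprinted Kcnq1 domain, lies within Kcnq1 (chr7:143106877-143427050). Kcnq1ot1 averaged 8.26 in SAMR1, 8.64 in SAMP8 and 7.80 with TG, the last being 1.79-fold under untreated SAMP8, while Kcnq1 was 1.51-fold higher with TG at a low signal. Probe positions and strands are not given in the sources used here, so signal from a transcript that overlaps either gene of such a pair cannot be told apart. Kcnrg, which encodes a protein that hinders the assembly of Kv channels, averaged 5.10, 5.38 and 5.04.

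Genomic span moved with the differences. The members span from 1.45 kb (Kcne1l) to 1140 kb (Kcnip4), with a median of 32.9 kb. Of the 47 members longer than that, 32 were lower with TG than in untreated SAMP8 and 15 were higher, with a median of -0.19. Of the 48 shorter members, 16 were lower and 31 were higher, with a median of 0.10. Probe sets at large, split at the same 32.9 kb, leaned the same way. Of 6897 long ones, 4248 were lower with TG and 2543 were higher, with a median of -0.08. Of 14525 short ones, 6195 were lower and 8096 were higher, with a median of 0.04. In SAMP8 minus SAMR1 the medians were 0.17 for the long and 0.01 for the short members, beside 0.06 and -0.02 for all probe sets. Without the low signals, the medians with TG were -0.20 over 40 long members and 0.01 over 35 short ones, beside -0.10 and 0.04 for all probe sets. Of the 6 members at least 1.5-fold lower with TG, 5 were long, beside 452 long and 364 short genes among all probe sets so placed. Of the 6 at least 1.5-fold higher, 5 were short, beside 794 short and 134 long genes, so that most such genes in the tables were short too. In TG-treated SAMP8 minus SAMR1 both classes of members had a median of 0.04. RNA quality was not given per array, and its part in these differences was not tested.

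**Figure D4:**
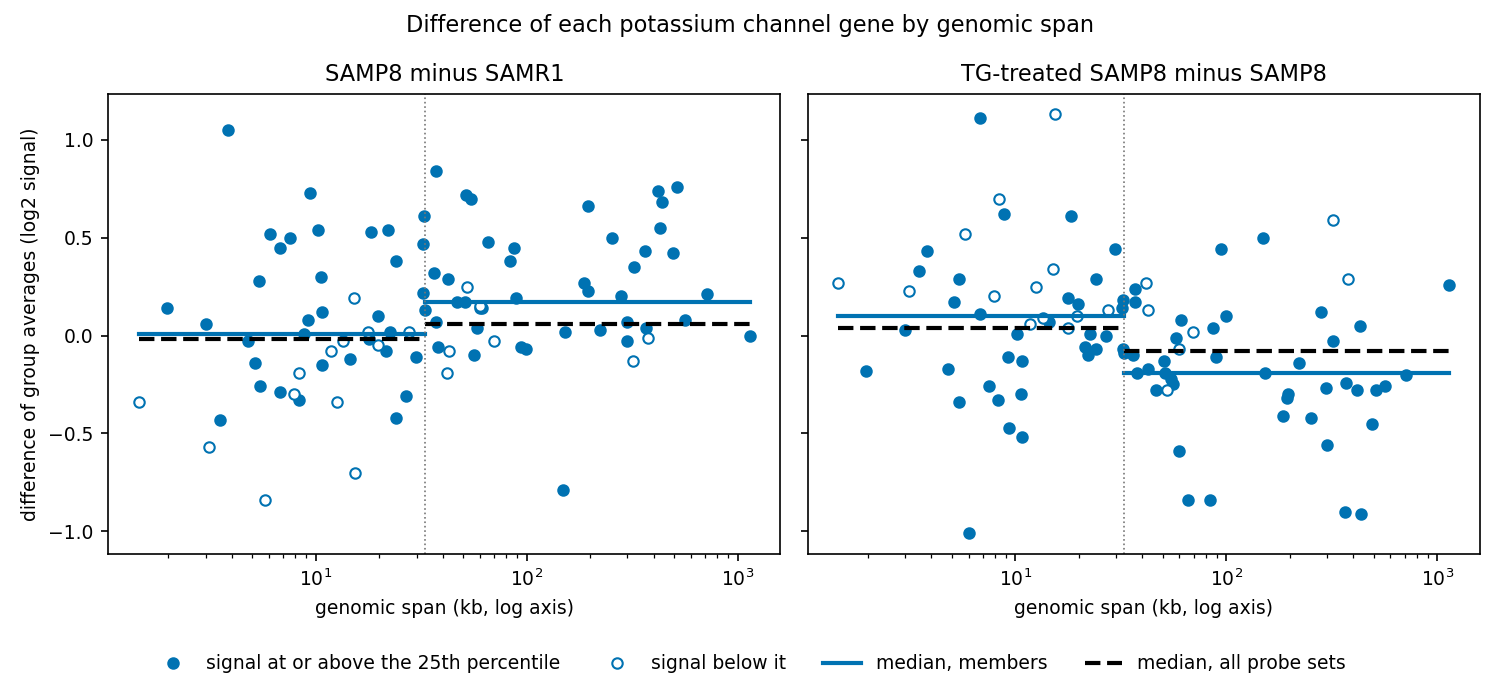
Difference of group averages (log2 signal) of each potassium channel gene against its genomic span (kb, log axis), for SAMP8 minus SAMR1 and TG-treated SAMP8 minus SAMP8; filled points have a signal at or above the 25th percentile, open points lie below it, and the dotted line is the members' median span of 32.9 kb. Solid lines are medians of the members and dashed lines medians of all probe sets on each side, and with TG the solid line steps from 0.10 to -0.19 and the dashed line from 0.04 to -0.08.

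Genes whose products bind, anchor or drive potassium channels without a Kcn symbol were read as a list of 32, all of which are in the tables. In SAMP8 minus SAMR1, 23 of the 32 were higher (beside 49.5% of all probe sets) and 9 lower (beside 49.0%). The median was 0.18, beside 0.00 over all probe sets. By at least 1.5-fold, 3 were higher (beside 5.00% of all probe sets) and none lower (beside 6.08%). With TG, 18 were lower than in untreated SAMP8 (beside 48.3%) and 11 higher (beside 50.0%), with a median of -0.10, beside 0.01. By at least 1.5-fold, none was higher with TG (beside 4.48%) and 3 were lower (beside 3.74%). In TG-treated SAMP8 minus SAMR1 the median was 0.11, with 1 gene higher (beside 5.62%) and 3 lower (beside 4.83%) by 1.5-fold. Ank2, a membrane anchor, averaged 12.49 in SAMR1, 13.14 in SAMP8 and 12.06 with TG. Cntnap2 (9.62, 9.76 and 9.02) and Cntn2 (9.81, 10.40 and 10.31), whose proteins gather Kv1 channels beside the node of Ranvier, differed in order, with Cntnap2 lowest with TG and Cntn2 lowest in SAMR1. The Kv4 partners Dpp6 (14.21, 14.50 and 13.93) and Dpp10 (10.45, 10.28 and 9.61) were both lowest with TG. Lrrc55, a BK auxiliary subunit, averaged 6.85, 7.45 and 7.16, and Hcn2, a pacemaker channel, averaged 8.03, 8.59 and 8.72.

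Markers of cell types that also carry these channels differed between the groups, and their part in the values above was not tested. Of 5 astrocyte markers all 5 were higher in SAMP8 than in SAMR1 (median 0.46), and Gfap averaged 11.08, 12.03 and 11.92. The astrocyte channel Kcnj10 was higher in SAMP8 by 0.13, and Kcnk1, of astrocytes and neurons, by 0.84. The 8 endothelial and mural markers had a median of 0.59 in SAMP8 minus SAMR1 and -0.28 with TG, with 7 higher in the first and 7 lower in the second, and of the smooth muscle markers Acta2 averaged 5.52, 7.71 and 5.54 while Tagln went the other way with 4.74, 3.91 and 4.62. Kcnj8 and Kcnmb1, known from pericytes and smooth muscle, were lower in SAMP8 than in SAMR1, by 0.29 and 0.15. With TG, Kcnj8 was higher than in untreated SAMP8 by 0.11 and Kcnmb1 was lower by 0.52. Of the 6 choroid plexus markers 3 were higher and 3 lower in SAMP8 (median 0.18), and with TG 2 were higher and 4 lower (median -0.11). Ttr averaged 8.45, 9.33 and 10.05 and Kl 6.17, 6.84 and 6.05, so these markers did not go together with TG. Kcnj13 was higher in SAMP8 by 0.54 and Kcne2 was lower by 0.84. The 6 interneuron markers had medians of -0.02 and, with TG, 0.53, where 4 were higher and 2 lower. Pvalb, Sst and Vip, of interneuron subtypes, were at least 1.5-fold higher with TG (beside 4.48% of all probe sets), while Gad1 and Gad2, of interneurons in general, were lower by 0.35 and 0.43. The remaining lists had medians, in SAMP8 minus SAMR1 and with TG, of 0.09 and 0.01 for 8 markers of hippocampal neurons, -0.25 and 0.36 for 5 of oligodendrocytes, and -0.08 and -0.03 for 5 of microglia. For tissues next to the hippocampus they were 0.00 and -0.18 for 9 markers of meninges, 0.44 and -0.07 for 8 probe sets of thalamus, and 0.19 and -0.42 for 5 of striatum. These lists were uneven. Of the meningeal markers 4 were at least 1.5-fold lower with TG (beside 3.74% of all probe sets) and none was as far higher (beside 4.48%). The 4 differences were -2.69 for Ptgds, -1.89 for Igf2, -1.10 for Ogn and -0.77 for Dcn. By sign alone, 6 meningeal markers were lower with TG and 3 were higher. Of the thalamic probe sets 5 were lower and 3 higher with TG, from -1.91 for Zic1 and -1.50 for Prkcd to 0.66 for Tnnt1. Signal was above the low limit for every marker of these lists except 1 each of choroid plexus, meninges and striatum.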

How the data were processed

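Hippocampal RNA was measured on Clariom S Mouse arrays, 3 per group in 3 groups, as grouped in the sample records. The authors summarised the intensities by SST-RMA in the Transcriptome Analysis Console (4.0.1 in the series text) and deposited 2 tables of group averages as log2 values. How arrays were averaged is not given in the sources used here. The tables also hold the authors' fold changes, p-values and adjusted p-values, which were not used. The SAMP8 averages of both tables are equal (largest difference 0), so TG-treated SAMP8 could be set against SAMR1 across them.

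Differences of averages were counted past 1.5-fold in each direction for members and for all probe sets, and medians were taken by subfamily. No test was run, as the tables used hold no values per array. On simulated averages with noise far under the fold limit, 200 probe sets changed 2-fold were all recovered. This checks the counting and not the reliability of any difference. The files hold no coordinates, so positions and spans come from RefSeq genes on GRCm38 (95 members and 96.5% of probe sets matched by symbol). Named are the 8 highest and 8 lowest members of the main comparisons outside the 25% lowest signals, members past 1.5-fold in both, and 30 listed hippocampal, pericyte and choroid plexus channel genes; some genes of this rule are not reported here, and all other members in the text were chosen with their values in view. The members, the partner list and the 10 marker lists were chosen with earlier results of these data known. Alternatives were fold limits of 1.2 and 2, no low signals, median centring, 1 value per gene and pore-forming genes alone. Sequences, the behavioral data, ELISA and ontology analyses were not used here. Python 3.11.15, numpy 2.4.6, pandas 2.3.3 and matplotlib 3.10.9 were used.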

Additional observations from a re-analysis of the deposited data

How the results depend on the processing

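No difference past 1.5-fold changed sign under any alternative tried. Of values near 0, the silent Kv median with TG went from 0.01 to -0.06 without the 25% lowest signals and to -0.03 after centring. Centring also turned Kcnj13 and Kcnn1 with TG from 0.01 to -0.02 and Kcnq3 in SAMP8 minus SAMR1 from -0.03 to 0.02, and moved Kcnip4 in SAMP8 minus SAMR1 from 0.00 to 0.05, and Kcnj1 and the Kir median with TG from 0.00 to -0.03. Counts of members followed the fold limit. In SAMP8 minus SAMR1 they were 31 higher and 12 lower at 1.2-fold and 1 and 0 at 2-fold, in TG-treated SAMP8 minus SAMP8 18 and 22, then 2 and 1, and in TG-treated SAMP8 minus SAMR1 27 and 13, then 4 and 0. Without the 25% lowest signals, 1 member was lower in SAMP8 than in SAMR1, 3 were higher with TG than in untreated SAMP8, and the members' median with TG was -0.11. There the EAG, ERG and ELK median of SAMP8 minus SAMR1 was 0.35, the Kv7 and SK medians with TG were -0.41 and -0.19, and those of TG-treated SAMP8 minus SAMR1 were -0.32 and 0.03, while the MinK family had no gene left. Among pore-forming genes alone, 3 were lower with TG. All other values stayed within 0.1 on the log2 scale for medians or 1.5 times for counts. The group medians themselves differed by -0.05, 0.03 and -0.02 in the 3 comparisons, and centring took these amounts off every difference. Every member has 1 probe set, so averaging probe sets changes nothing. Leaving out an array could not be run because the tables hold group averages. No paired analysis was possible because no value comes from a test and the columns carry no replicate number. Depth does not apply to arrays, and for the 20 members with low signal, all 5 MinK genes among them, signal over background is not given in the tables.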
